A study of Mus musculus with 4 samples.

Results

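The collagen genes of heart muscle cells under pressure overload were examined in RNA-seq libraries from sham-operated mice and from mice after transverse aortic constriction (TAC), a narrowing of the aorta by surgery that loads the left ventricle. Members were all genes whose symbol starts with Col, a number, the letter a and a second number. This gave 44 of the 22322 genes listed, and all 44 encode collagen chains. They were sorted by textbook family into 11 fibrillar collagens, 8 basement membrane collagens and 25 others. There were 2 sham and 2 TAC libraries, labelled as cardiomyocytes. Per the methods of the study, male mice were operated on at 2 months of age and cells were released by Langendorff perfusion, each library holding part of the cells of 1 heart. The study follows its mice to 14 weeks after the operation, although its sentence on the perfusion gives 14 weeks as their age. No strain, transgene or further treatment is named in the sources used here, so that the groups differ, as labelled, by the operation. Where values are given in pairs, the first is from library 1 and the second from library 2 of the group.

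Collagens are long chains of repeated glycine triplets that wind around each other into rope-like molecules. Fibrillar collagens (types I, II, III, V, XI, XXIV and XXVII) line up into the fibres that give the heart wall its tensile strength, and cardiac fibroblasts are their main source. Type IV collagen forms the sheet-like network of basement membranes, which surround every cardiomyocyte and every capillary, and types XV and XVIII sit at the edge of these sheets. The others include the beaded filaments of type VI, which lie next to the basement membrane, the collagens that decorate fibrils, and chains that span the cell membrane. Collagen deposition, or fibrosis, is a known feature of the overloaded heart.

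The libraries held between 24237777 and 32118323 counts. Cardiomyocyte markers were far above those of other cell types in all of them. The summed level of 10 cardiomyocyte markers (Myh6, Tnnt2, Ttn and others) was 73080 to 81640 CPM, where CPM is the count per gene scaled to the TMM-corrected library total. The 44 collagens together reached 665.1 to 828.1 CPM. Markers of other cells were also present, at 174.4 to 446.9 CPM for 12 fibroblast genes and 332.9 to 720.8 CPM for 12 endothelial genes. The 13 mitochondrially encoded genes took 47.42% of the counts of TAC 1 (95% Wilson interval 47.4% to 47.43%, counting error only). In the other libraries they took 39.84%, 40.85% and 40.35%, with intervals of 39.82% to 39.86%, 40.83% to 40.87% and 40.33% to 40.37% in sham 1, sham 2 and TAC 2.

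Most collagen RNA in these libraries was type IV. Col4a1 and Col4a2, whose chains form the common network of basement membranes, lie head to head on chromosome 8 of GRCm38 (mm10), at chr8:11198423-11312826 on the minus strand and chr8:11312805-11449287 on the plus strand. Their annotated ends share 22 bases, so that both genes start from 1 stretch of DNA. The windows from 250 bases before to 50 bases after each start (RefSeq, GRCm38.p6) are printed because these 2 genes carry the largest part of the collagen signal. Capitals mark the 78 bases that lie in both windows, read on opposite strands, at chr8:11312777-11312854.

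Col4a1, chr8:11312777-11313076, minus strand: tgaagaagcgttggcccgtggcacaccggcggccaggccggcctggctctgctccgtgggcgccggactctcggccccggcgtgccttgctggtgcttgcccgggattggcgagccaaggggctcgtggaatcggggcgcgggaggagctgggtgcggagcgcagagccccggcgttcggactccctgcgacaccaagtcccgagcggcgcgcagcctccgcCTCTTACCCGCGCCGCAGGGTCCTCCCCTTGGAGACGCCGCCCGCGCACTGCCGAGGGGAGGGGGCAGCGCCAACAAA
Col4a2, chr8:11312555-11312854, plus strand: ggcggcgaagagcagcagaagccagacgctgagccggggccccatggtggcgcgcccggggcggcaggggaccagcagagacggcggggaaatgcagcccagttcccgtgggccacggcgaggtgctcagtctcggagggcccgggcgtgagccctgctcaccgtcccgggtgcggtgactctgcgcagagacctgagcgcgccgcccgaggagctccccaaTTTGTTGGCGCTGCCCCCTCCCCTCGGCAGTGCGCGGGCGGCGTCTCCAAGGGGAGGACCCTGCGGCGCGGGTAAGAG

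For the fibrillar collagens the window of Col1a2, the second chain of type I collagen, is printed, since this gene had the largest negative fold change of its class. Capitals mark the letters CCAAT on either strand (read as ATTGG on the printed strand), the box to which the factor NF-Y binds.

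Col1a2, chr6:4505368-4505667, plus strand: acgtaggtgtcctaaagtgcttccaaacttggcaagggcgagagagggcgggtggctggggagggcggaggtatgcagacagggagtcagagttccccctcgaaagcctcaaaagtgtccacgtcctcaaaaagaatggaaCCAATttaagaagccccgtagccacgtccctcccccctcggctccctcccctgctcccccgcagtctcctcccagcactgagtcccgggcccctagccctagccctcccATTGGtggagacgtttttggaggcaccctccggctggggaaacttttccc

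A window was found for 35 of the 44 collagens. CCAAT on either strand was held by 12 of these 35 (34.3%) and by 37.9% of the 27025 windows of all genes. It was found in 3 of 8 fibrillar and 4 of 7 basement membrane windows, the latter being those of Col4a1, Col4a2, Col4a5 and Col18a1. GGGCGG on either strand, the core of the GC box, was held by 22 of 35 collagen windows (62.9%) and by 35.9% of all windows. TATAAA on either strand was held by 5 of 35 (14.3%) and by 14.2% of all. A match of one pattern overlapped a match of another in 0 of the 35 collagen windows. These counts describe letters only.

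Levels were compared between genes in FPKM, which the authors scaled by transcript length. The summed FPKM of all collagens was 161 and 125 in sham and 104 and 135 in TAC. Col4a1 and Col4a2 together made up 63.8% and 67.3% of this sum in sham and 74.3% and 74.2% in TAC. The mean FPKM over the libraries was 50.6 for Col4a1 and 40.5 for Col4a2. Next was Col3a1, type III collagen of thin fibres, at 6.85, followed by Col4a5 at 6.51, Col15a1 at 4.16 and Col1a2 at 4.15. Col6a1 stood at 3.73, Col6a2 at 3.38 and Col1a1 at 2.12. These were the 9 members with a mean FPKM over 2.

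At the other end, Col2a1, Col9a1, Col11a1, Col19a1 and Col6a4 had no count in any library. Types II, IX and XI are the collagens of cartilage. A count of 0 in a library of this depth allows up to 3 counts, so that very low levels were not detectable. Another 12 members had 1 to 18 counts in their highest library and did not pass the low-count filter. Among them were Col10a1 of growth cartilage, Col17a1 of skin hemidesmosomes, and Col28a1, a collagen of peripheral nerve, with 18 and 9 counts in sham and 7 and 5 counts in TAC. The other 27 members, 8 fibrillar, 8 basement membrane and 11 other collagens, were tested.

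**Figure D1:**
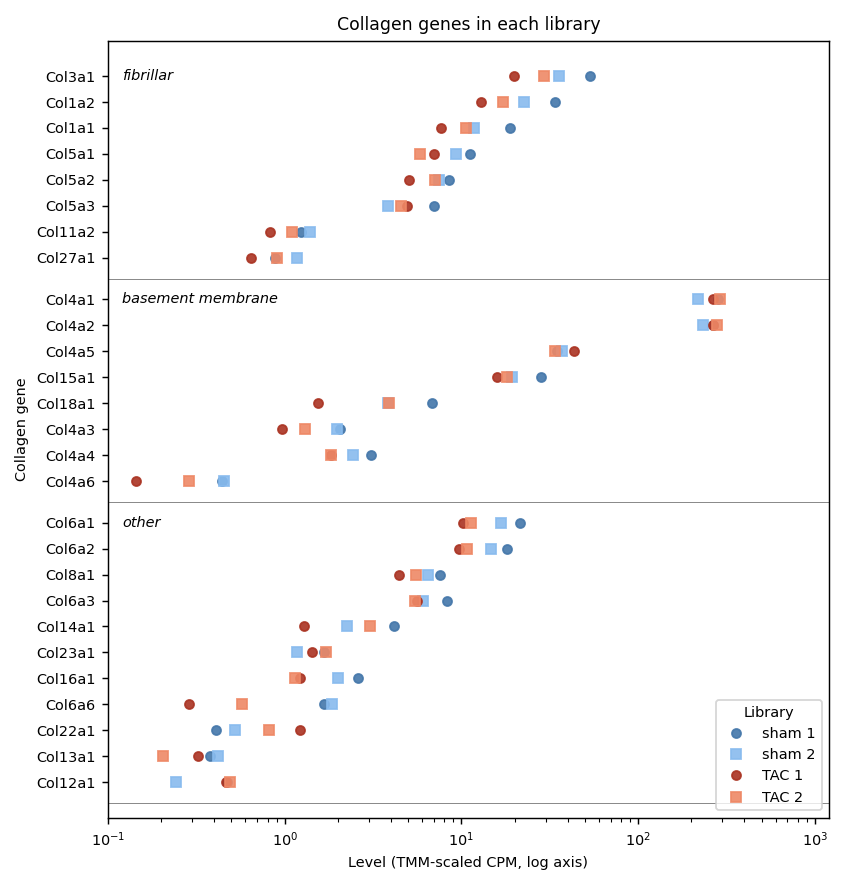
Level of the 27 tested collagen genes in each library, in TMM-scaled CPM on a log axis, grouped by class and ordered by mean FPKM. Points are single libraries, blue for sham and red for TAC. Col4a1 and Col4a2 stand apart at 219.5 to 290.0 CPM, and for most fibrillar collagens both red points lie to the left of both blue points.

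TAC was then compared with sham to ask how the collagen RNA of these libraries differs under load. With edgeR (quasi-likelihood test, 12499 genes, Benjamini-Hochberg adjusted p under 0.05), 3 of the 27 collagens fell and 0 rose. Over all genes tested, 5.01% were called in either direction and 2.43% were called lower. The 3 called members, Col6a1, Col6a2 and Col6a6, all encode chains of type VI collagen. At an unadjusted p under 0.05, 11 members were lower (14.0% of all genes tested) and 1, Col22a1, was higher (13.5% of all genes tested). DESeq2 called 4 members lower (3.82% of all genes) and 0 higher. Both TAC libraries lay below both sham libraries in 17 of 27 members, against 30.3% of all genes tested, and above them in 2, against 29.8% of all genes. The log2 fold change was below 0 in 21 of 27 members (50.9% of all genes tested).

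The median log2 fold change of the tested members was −0.56 for fibrillar, −0.54 for basement membrane and −0.57 for other collagens, against −0.01 for all genes tested. The near-equal medians did not hold in all settings, being −0.59, −0.25 and −0.63 in the same order with limma on FPKM and −0.53, −0.30 and −0.39 without sham 1. All 8 fibrillar members had a negative fold change, between −0.91 and −0.20. Basement membrane members ranged from −1.06 to 0.14 and the others from −2.04 to 1.13. Members are not independent of each other, and these medians are descriptions.

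The number of called members moved with single libraries. Leaving out sham 1 gave 1 lower call, where 2.11% of all genes tested were called lower, and leaving out sham 2 gave 8 (3.97% of all genes). Leaving out TAC 1 ended all 3 calls (0.408% of all genes) and leaving out TAC 2 gave 6 (4.97% of all genes). Calls over all genes thus moved in the same direction as those of the collagens. Sham 1 was above sham 2 in 20 of 27 members (6117 of the 12499 genes tested), by a median of 0.35 on the log2 scale. TAC 1 was below TAC 2 in 20 of 27 (6257 of the 12499 genes tested), with a median log2 ratio of −0.18. Over all genes tested both medians were 0.00. In 12 of 27 members sham 1 was the highest and TAC 1 the lowest of the 4 libraries. This order was not counted over all genes, so that the 12 members have no share to be set against. TAC 1 is also the library with the high mitochondrial share. The part of that share in the result was not tested.

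**Figure D2:**
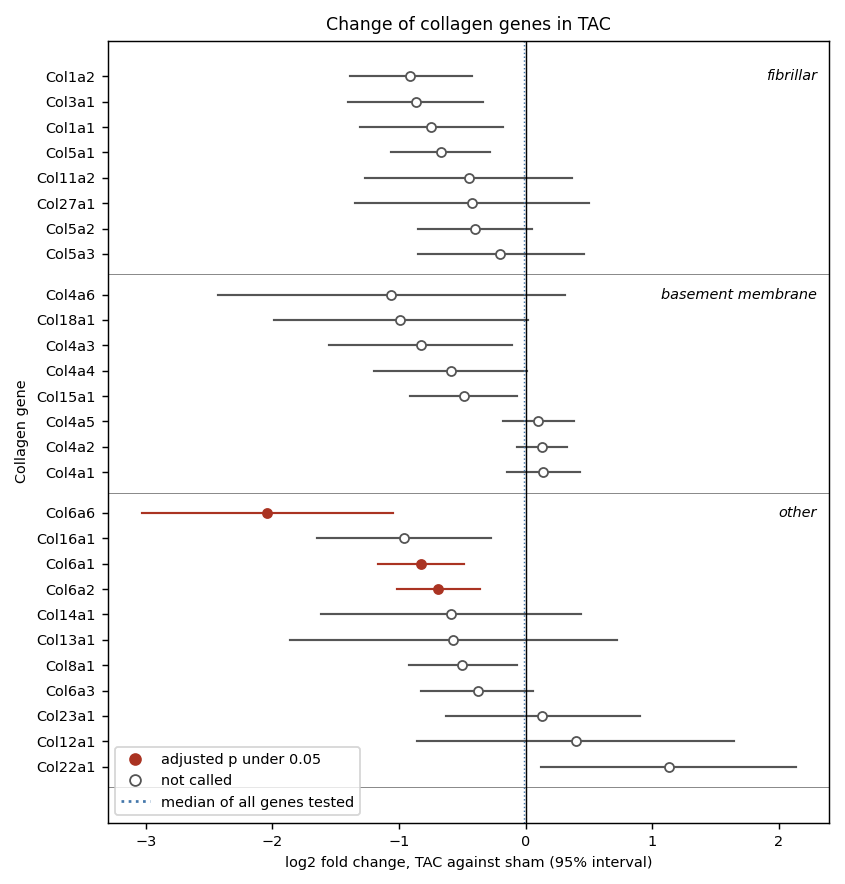
Log2 fold change of each tested collagen gene in TAC against sham with its 95% interval from edgeR (n = 2 libraries per group), grouped by class. Filled red points passed an adjusted p of 0.05, and the dotted line is the median of all genes tested (−0.01). The 3 filled points are chains of type VI collagen, and the intervals of Col4a1, Col4a2 and Col4a5 are short and span 0.

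Among the fibrillar collagens, Col3a1 (ENSMUSG00000026043, chr1:45311538-45349706) stood at 53.8 and 35.8 CPM in sham and 19.8 and 29.4 CPM in TAC. The groups did not overlap, but the libraries of each group lay further from each other than the lower sham lay from the higher TAC library. This gave a log2 fold change of −0.87 ± 0.23 (SE, n = 2 per group by edgeR, adjusted p = 0.0694), with a range of 0.000897 to 0.223 over the alternatives.

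Type I collagen, the main component of thick fibres, is a trimer of chains from Col1a1 and Col1a2. Col1a2 (ENSMUSG00000029661, chr6:4504814-4541544) stood at 33.7 and 22.5 CPM in sham and 12.95 and 17.1 CPM in TAC. Its log2 fold change of −0.91 ± 0.21 was just short of the threshold (edgeR adjusted p = 0.0525, range 0.000608 to 0.188 over the alternatives). Col1a1 (ENSMUSG00000001506, chr11:94936224-94953042) stood at 18.8, 11.8, 7.64 and 10.7 CPM in sham 1, sham 2, TAC 1 and TAC 2. Its log2 fold change was −0.75 ± 0.24 (edgeR adjusted p = 0.107, range 0.0059 to 0.398). For both genes the lower sham library was close to the higher TAC library. DESeq2 called both, Col1a2 at an adjusted p of 0.000608 and Col1a1 at 0.0388. Without sham 1 the log2 fold changes of Col3a1, Col1a2 and Col1a1 were −0.54, −0.58 and −0.37. Without sham 2 they were −1.13, −1.17 and −1.04.

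Type V collagen sits inside type I fibres and sets their width. Col5a1 stood at 11.2 and 9.28 CPM in sham and at 7.03 and 5.85 CPM in TAC, with a log2 difference of −0.67 ± 0.17 (edgeR adjusted p = 0.0619). Its partner Col5a2 stood at 8.50 and 7.51 CPM in sham and 5.06 and 7.12 CPM in TAC. The log2 difference of −0.40 ± 0.19 (edgeR adjusted p = 0.231) was −0.17 without TAC 1 and −0.67 without TAC 2. Col5a3 was at 6.98 CPM in sham 1, but its other sham library at 3.82 CPM was the lowest of all 4. Its log2 fold change was −0.20, turning to 0.31 without sham 1. The minor fibrillar chains Col11a2 and Col27a1 stood between 0.646 and 1.39 CPM in every library, with log2 fold changes of −0.45 and −0.42.

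No fibrillar member was called by edgeR, with 4 of 8 lower at an unadjusted p under 0.05 (Col3a1, Col1a2, Col1a1 and Col5a1, against 14.0% of all genes). DESeq2 called 2, Col1a1 and Col1a2 (3.82% of all genes called lower). In 6 of 8 both TAC libraries were below both sham libraries, against 30.3% of all genes. When sham 2 was left out 4 were called (3.97% of all genes called lower), and 2 without TAC 2 (4.97%), against 0 without sham 1 (2.11%) or without TAC 1 (0.408%). Total-count scaling and the replicate block each called 2 (3.38% and 2.38%), and no low-count filter called 4 (6.05%).

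The basement membrane collagens split into an abundant and a scarce part. Col4a1 (ENSMUSG00000031502) stood at 283.6 and 219.5 CPM in sham and 264.0 and 290.0 CPM in TAC. The TAC libraries thus lay within or just above the sham range. The log2 fold change was 0.14 ± 0.12, with a 95% interval of −0.15 to 0.43 (edgeR adjusted p = 0.491). Col4a2 (ENSMUSG00000031503) stood at 265.5, 233.3, 265.5 and 279.2 CPM in the same order, with a log2 fold change of 0.13 ± 0.09 and an interval of −0.07 to 0.33 (edgeR adjusted p = 0.369). With total-count scaling, which moved the median of all tested genes to −0.20, the estimates were −0.05 for Col4a1 and −0.06 for Col4a2, so the direction of both turned with the scaling. The FPKM of Col4a1 was 1.15 to 1.3 times that of Col4a2 in every library.

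Col4a5, an X-linked chain of the rarer type IV networks, stood at 34.8 and 37.3 CPM in sham and at 43.2 and 34.0 CPM in TAC. Its log2 fold change was 0.10 ± 0.12, with an interval of −0.18 to 0.38 (edgeR adjusted p = 0.62). It was −0.08 without TAC 1 and −0.10 with total-count scaling. Col4a6, its head-to-head neighbour 1308 bases away on chromosome X, had 14 and 13 counts in sham and 4 and 7 counts in TAC, and a log2 difference of −1.06 ± 0.59 (edgeR adjusted p = 0.281). The levels of these neighbours were far apart, since Col4a5 had 1100 and 1073 counts in sham and 1203 and 832 counts in TAC.

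Col4a3 and Col4a4, known from the kidney filter, form the third such pair, with 71 bases between them on chromosome 1. Both were scarce. Col4a4 stood at 3.10 and 2.43 CPM in sham and 1.83 and 1.84 CPM in TAC, and Col4a3 at 2.05 and 1.98 CPM in sham and 0.968 and 1.31 CPM in TAC. The log2 fold changes were −0.59 ± 0.26 and −0.83 ± 0.31 (edgeR adjusted p = 0.189 and 0.141). Both TAC libraries were below both sham libraries for each gene. For Col4a3 this difference was not seen in FPKM, where the mean log2 ratio was −0.05. The transcript length implied by its count and FPKM was 8667 and 8581 bases in the sham libraries but 4203 and 4715 in the TAC libraries, on 27 to 65 counts.

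Col15a1 and Col18a1 encode multiplexins, large proteoglycan-like collagens whose ends can be released as restin and endostatin. Col15a1 stood at 28.4 and 19.4 CPM in sham and 15.9 and 18.2 CPM in TAC, with a log2 difference of −0.49 ± 0.18 (edgeR adjusted p = 0.136). It was −0.19 without sham 1 and −0.74 without sham 2 (edgeR adjusted p = 0.00903). Col18a1 varied most within groups, at 6.795 and 3.82 CPM in sham and at 1.54 and 3.89 CPM in TAC. Its groups overlapped, and the log2 fold change of −0.99 ± 0.43 (edgeR adjusted p = 0.189) was −0.51 without sham 1, −0.46 without TAC 1 and −1.79 without TAC 2.

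No basement membrane member was called by edgeR or DESeq2, and 2 of 8 (Col15a1 and Col4a3) had an unadjusted p under 0.05 and a negative fold change (14.0% of all genes). Without sham 2, Col18a1 and Col15a1 were called (3.97% of all genes called lower), without TAC 2 Col18a1 (4.97%), and with no low-count filter Col15a1 (6.05%).

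Type VI collagen, built from Col6a1, Col6a2 and a larger partner chain, links the basement membrane to the surrounding matrix, and defects in it cause muscle disease. Col6a1 (ENSMUSG00000001119, chr10:76708792-76726168) stood at 21.4 and 16.8 CPM in sham and 10.2 and 11.3 CPM in TAC. The groups were further apart than the libraries within either group. The log2 fold change stood at −0.83 ± 0.15 (edgeR adjusted p = 0.0278, range 0.000591 to 0.106 over the alternatives). The call was lost without TAC 1, where the fold change was −0.75, and with limma on FPKM (adjusted p = 0.0671), where it was −0.98.

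Col6a2 (ENSMUSG00000020241, chr10:76595762-76623630), 85161 bases from Col6a1 on the same strand, stood at 18.1, 14.7, 9.65 and 10.7 CPM in sham 1, sham 2, TAC 1 and TAC 2. It fell by 0.69 ± 0.14 on the log2 scale (edgeR adjusted p = 0.041, range 0.00321 to 0.152). It was not called without sham 1 (adjusted p = 0.109) or TAC 1 (0.152), nor with limma on FPKM (0.101), with fold changes of −0.53, −0.62 and −0.83. The FPKM ratio of Col6a1 to Col6a2 was 1.16, 1.13, 1.03 and 1.03 in the same order of libraries, so that these chains stayed near equal levels.

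The partner chain differed by gene. Col6a3, the usual partner, stood at 8.34 and 6.08 CPM in sham and 5.63 and 5.44 CPM in TAC, with a log2 difference of −0.38 ± 0.19 (edgeR adjusted p = 0.24). It was −0.14 without sham 1. Col6a6 (ENSMUSG00000043719, chr9:105687809-105828160), an alternative to Col6a3, had 53 counts in each sham library, 8 in TAC 1 and 14 in TAC 2. Its level was 1.68 and 1.84 CPM in sham and 0.287 and 0.573 CPM in TAC, the lowest level of the called members. It fell by 2.04 ± 0.42 on the log2 scale (edgeR adjusted p = 0.0423, range 0.00441 to 0.156), the most negative fold change of the tested collagens. The call was lost without sham 1 (adjusted p = 0.0528), sham 2 (0.0588) or TAC 1 (0.156), with fold changes of −2.11, −1.97 and −1.61, and with limma on FPKM (0.138), where the fold change was −1.11, and DESeq2 gave it no adjusted p. Of the other alternative chains, Col6a4 had no count and Col6a5 had 1 count in all.

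Among the short-chain collagens, Col8a1, found in vessel walls, stood at 7.52 and 6.499 CPM in sham and 4.45 and 5.52 CPM in TAC. Its log2 fold change was −0.50 ± 0.18 (edgeR adjusted p = 0.134). Of the fibril-associated collagens, Col16a1 stood at 2.59 and 2.02 CPM in sham and 1.22 and 1.15 CPM in TAC (log2 fold change −0.96 ± 0.30, edgeR adjusted p = 0.0961). Col14a1 was at 4.17 and 2.26 CPM in sham and 1.29 and 3.03 CPM in TAC, with overlapping groups and a fold change that went from −0.08 without sham 1 to −1.32 without TAC 2.

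Col22a1, known from tissue junctions such as that of muscle and tendon, went the other way. It had 13, 15, 34 and 20 counts in sham 1, sham 2, TAC 1 and TAC 2, that is 0.411 and 0.521 CPM in sham and 1.22 and 0.818 CPM in TAC. Both TAC libraries were above both sham libraries. The log2 fold change of 1.13 ± 0.43 had a 95% interval of 0.12 to 2.14 and was not called (edgeR adjusted p = 0.148). Col12a1 and the transmembrane Col23a1 had overlapping groups and fold changes of 0.40 and 0.13, which were −0.03 with limma on FPKM for Col12a1, and −0.05 with total-count scaling and −0.60 with limma on FPKM for Col23a1. The transmembrane Col13a1 was at −0.57 on 5 to 12 counts.

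Col4a1 can be set against the main fibrillar collagens within each library, where no scaling between libraries enters. The ratio of Col4a1 to Col3a1 in FPKM was 5.15 and 6.99 in sham and 13.3 and 8.87 in TAC. The ratio of Col4a1 to Col1a1 was 16.6, 22.6, 36.8 and 31.2 in the same order. Both ratios were higher in both TAC libraries than in either sham library. They are given as a description, with no test (with 2 libraries per group an exact permutation test cannot go below p = 0.333). By contrast, the ratio of Col3a1 to Col1a1 was 3.23, 3.23, 2.77 and 3.52, and that of Col1a2 to Col1a1 1.99, 2.11, 1.88 and 1.77, with no large difference between groups.

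Summed over members, the basement membrane class took 73.1% and 76.6% of the collagen FPKM in sham and 84.6% and 82.3% in TAC. The fibrillar class took 16.5% and 13.8% in sham and 8.85% and 11.0% in TAC, and the others 10.3% and 9.62% in sham and 6.54% and 6.75% in TAC. For each class the groups did not overlap. In counts the basement membrane share was 75.43% in sham 1 (95% Wilson interval 74.9% to 75.94%) and 77.9% in sham 2 (77.31% to 78.49%). It was 86.04% in TAC 1 (85.54% to 86.52%) and 84.11% in TAC 2 (83.58% to 84.64%). These intervals cover counting error only, and the difference between replicates is larger than they are.

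**Figure D3:**
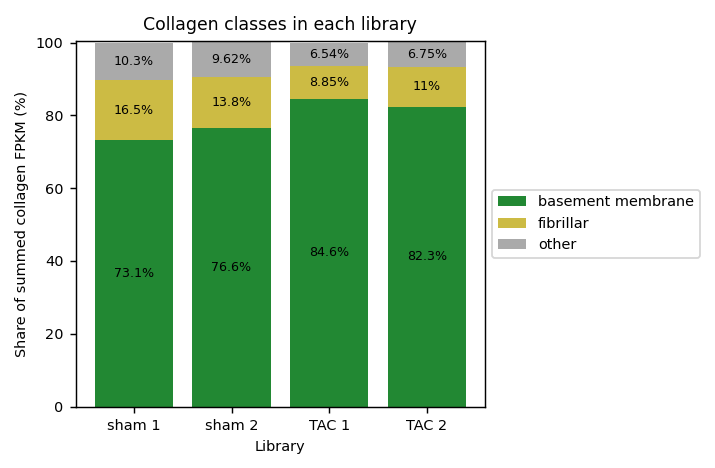
Share of each collagen class in the summed collagen FPKM of each library, as stacked bars that start at 0 and reach 100%. The basement membrane part is 73.1% and 76.6% in the sham libraries and 84.6% and 82.3% in the TAC libraries, while the fibrillar and other parts are smaller in both TAC libraries.

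The summed markers of fibroblasts, endothelial cells, mural cells and macrophages were below both sham values in both TAC libraries, as were the summed fibrillar and other collagens. The summed mesothelial markers overlapped between groups, at 122 and 77.8 in sham and 63.1 and 124 in TAC as a percentage of the sham mean. Their log2 fold changes were −0.35 to −0.01, with 50.9% of all genes tested below 0. The mesothelial median of −0.15 turned to 0.24 without sham 1 and 0.38 without TAC 1. It was −0.39 without sham 2 and −0.80 without TAC 2. No test compared the lists. The summed level of the 12 fibroblast markers (Pdgfra, Tcf21, Dcn, Lum and others, none of them a collagen, but with the collagen receptor Ddr2) was 446.9 and 316.2 CPM in sham and 174.4 and 241.6 CPM in TAC. All 12 had a negative fold change, with a median of −0.81, and 5 were called lower (Gsn, Dcn, Lum, Dpt and Cygb). The 12 endothelial markers had a median of −0.68 with 5 called lower, the 10 mural markers a median of −0.86 with 1 called, and the 10 macrophage markers a median of −0.94 with 0 called by edgeR and 7 at an unadjusted p under 0.05. Without TAC 1 the medians were −0.61, −0.45, −0.52 and −0.62 for fibroblast, endothelial, mural and macrophage markers, with 0, 2, 0 and 0 called lower (0.408% of all genes). Without TAC 2, 6, 11, 8 and 4 were called lower (4.97% of all genes), and without sham 2, 8, 11, 5 and 9 (3.97%). Without sham 1 the macrophage median was −0.42, their sums being 76.94 CPM in sham 2 and 76.11 CPM in TAC 2, and 2, 2, 3 and 0 markers of the 4 lists were called lower (2.11%). Over all genes tested with all libraries these rules took 2.43% (called lower) and 14.0% (unadjusted, lower). Limma on FPKM called 0, 2, 0 and 0 markers of the 4 lists lower (1.02% of all genes), at medians of −0.95, −0.87, −1.04 and −1.1. All 4 lists had counts for every member in at least 1 library. In such bulk samples fewer cells of a type and less RNA per cell cannot be told apart. The part of these cells in the collagen result was not tested.

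As a percentage of the sham mean, the fibrillar collagens summed to 118 and 81.7 in sham and 51.5 and 67.2 in TAC, and the fibroblast markers to 117 and 82.9 in sham and 45.7 and 63.3 in TAC. Most of the fibroblast marker sum was Gsn, at 265.2 and 177.4 CPM in sham and 93.8 and 134.4 CPM in TAC. The ratio of summed fibrillar collagens to summed fibroblast markers was 0.302 and 0.295 in sham and 0.337 and 0.318 in TAC. Both TAC values were above both sham values, within a narrow range. The ratio to the endothelial markers was also in a narrow range, at 0.187 and 0.153 in sham and 0.177 and 0.165 in TAC, and that to the mural markers was 0.332 and 0.226 in sham and 0.334 and 0.259 in TAC. The summed basement membrane collagens, mostly Col4a1 and Col4a2, had other ratios. Their ratio to the fibroblast markers was 1.40 and 1.64 in sham and 3.40 and 2.60 in TAC, and their ratio to the endothelial markers 0.867 and 0.849 in sham and 1.78 and 1.35 in TAC. As a percentage of the sham mean, Col4a1 and Col4a2 summed to 110 and 90.4 in sham and 106 and 114 in TAC, and the other 6 basement membrane members to 107 and 92.8 in sham and 90.1 and 84.5 in TAC. The cardiomyocyte markers summed to 73080 and 81640 CPM in sham and 77840 and 75090 CPM in TAC.

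Genes for making, processing and sensing collagen were examined as a list of 42, of which 36 could be tested. By edgeR 3 rose and 1 fell, against 5.01% of all genes called in either direction, and at an unadjusted p under 0.05 there were 5 higher and 9 lower, against 13.5% and 14.0% of all genes. The median log2 fold change was −0.18. By subgroup, with no test between them, the medians were 0.13 for 11 hydroxylase genes, 0.07 for 8 folding and export genes, −0.34 for 6 proteinase and enhancer genes, −0.77 for 5 crosslinking genes and −0.32 for 6 receptor genes. With total-count scaling the first 2 of these turned to −0.05 and −0.12. Single libraries also moved most of these medians. Leaving out TAC 2 put the crosslinking genes at −1.26 and the receptors at −0.43, and leaving out TAC 1 at −0.37 and −0.18. When sham 2 was dropped these lists stood at −0.92 and −0.52, and when sham 1 was dropped at −0.38 and −0.04. Over these fits the hydroxylase median ranged from 0.02 to 0.23, and that of folding and export from −0.04 to 0.14. The proteinase and enhancer median stayed between −0.35 and −0.33.

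Inside the cell, prolyl 4-hydroxylases make the hydroxyproline that keeps the collagen helix stable. Their catalytic subunits P4ha1 and P4ha2 both rose. P4ha1 stood at 47.6 and 45.6 CPM in sham and 68.1 and 66.3 CPM in TAC, with a log2 difference of 0.53 ± 0.08 (edgeR adjusted p = 0.0149, range 0.000257 to 0.232 over the alternatives). P4ha2 stood at 40.5 and 39.6 CPM in sham and 59.2 and 52.2 CPM in TAC, with a log2 difference of 0.48 ± 0.09 (edgeR adjusted p = 0.0313, range 0.0032 to 0.193). Replicates were close and the groups well apart in both. With total-count scaling the fold changes were 0.34 and 0.28, and neither was called. Nor was either called with limma on FPKM (fold changes 0.33 and 0.30), or without TAC 1 (edgeR adjusted p = 0.0523 and 0.105, fold changes 0.51 and 0.38), and P4ha2 was not with totals without mitochondrial genes (0.053). P4hb, the other subunit of this enzyme, stood at 174.1 and 154.8 CPM in sham and 166.7 and 193.3 CPM in TAC (log2 fold change 0.13, edgeR adjusted p = 0.414).

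Serpinh1 encodes HSP47, the chaperone that is particular to collagen. It stood at 123.2 and 106.3 CPM in sham and 146.7 and 158.8 CPM in TAC, and rose by 0.41 ± 0.09 on the log2 scale, at the edge of the threshold (edgeR adjusted p = 0.0499, range 0.00554 to 0.434). It was called in 4 of 11 alternatives. The call was lost without sham 2 (0.114), TAC 1 (0.0992) or TAC 2 (0.089), with fold changes of 0.31, 0.47 and 0.35. It was also lost with total-count scaling (fold change 0.23), with totals without mitochondrial genes (0.117, fold change 0.31), with the replicate block (0.0593, fold change 0.42) and with limma on FPKM (0.434, fold change 0.21). Plod2, a lysyl hydroxylase that prepares collagen for crosslinking, stood at 24.1 and 27.8 CPM in sham and 18.4 and 19.0 CPM in TAC, just outside the threshold (log2 fold change −0.47 ± 0.11, edgeR adjusted p = 0.0515), and was called lower in 6 of 11 alternatives, DESeq2 among them (0.0388). Plod1 (−0.03), Ppib (0.10) and Mia3, a collagen export factor (0.04), had values near 0.

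Outside the cell, Pcolce, which speeds the removal of the procollagen end by Bmp1, fell. It stood at 14.1 and 12.1 CPM in sham and 8.39 and 7.48 CPM in TAC, and its log2 fold change was −0.72 ± 0.14 (edgeR adjusted p = 0.0363, range 0.00362 to 0.101). The call was lost without sham 1 (0.101), TAC 1 (0.0842) or TAC 2 (0.063), with fold changes of −0.61, −0.81 and −0.64. Bmp1 itself was at −0.33 (edgeR adjusted p = 0.119). All 5 lysyl oxidase genes (Lox and Loxl1 to Loxl4), which crosslink the finished fibres, had negative fold changes, from −1.36 to −0.44. Over all genes tested, 50.9% were below 0. Loxl4, at −1.36, had 25 and 17 counts in sham and 8 and 6 counts in TAC. Loxl3 had 35 and 29 counts in sham and 10 and 20 counts in TAC. The groups of Lox overlapped, on 52 and 27 counts in sham and 12 and 27 counts in TAC. None of the 5 was called by edgeR, and 2 had an unadjusted p under 0.05 (14.0% of all genes, lower). DESeq2 gave an adjusted p for Loxl1 and Loxl2 only and called neither. Among the receptors, the integrin chain Itgb1 was at −0.09 (edgeR adjusted p = 0.448), its partner Itga1 at −0.41 (0.126), Ddr2 at −0.40 (0.282) and Ddr1 at 0.31 (0.119).

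**Figure D4:**
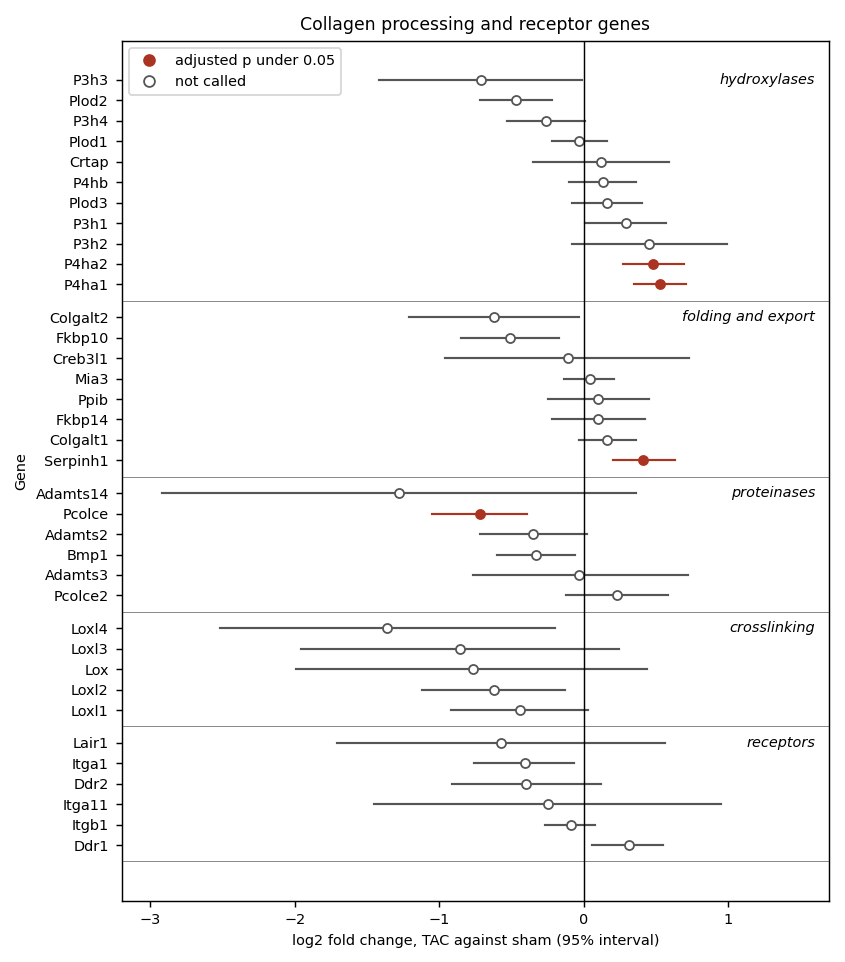
Log2 fold change in TAC against sham with its 95% interval (edgeR, n = 2 libraries per group) for the 36 tested genes of collagen processing and binding. Filled red points passed an adjusted p of 0.05: P4ha1, P4ha2 and Serpinh1 are to the right of 0 and Pcolce to the left, and all 5 crosslinking genes lie to the left.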

How the data were processed

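The authors isolated cardiomyocytes and sequenced RNA from 2 sham and 2 TAC hearts. Per the labels, the processing notes name Bowtie2 2.2.8, StringTie 1.3.1 and the build mm10, without saying what each did. Neither the counter nor its strand setting is named there. The authors deposited 2 values per gene and library, an expected count that was not whole for 1432 to 1519 genes and an FPKM value (scaled by transcript length and library size). The header of each file is out of line with its columns, and columns were read in the order the header names them, with FPKM first.

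Counts were rounded and tested in R 4.3.3 with edgeR 4.0.16: filterByExpr, TMM factors (0.868 to 1.097), glmQLFit, glmQLFTest, and Benjamini-Hochberg adjustment over all 12499 genes tested. The SE is the fold change divided by the square root of F. DESeq2 1.42.0 and limma 3.58.1 on log2(FPKM + 0.1) were alternatives, beside total-count scaling (named by the study), totals without mitochondrial genes, no low-count filter, a replicate block and each library left out. Each pair of replicates was compared by chi-square over genes (8.08 per degree of freedom for sham, 26.71 for TAC), so all libraries were kept apart. Between groups the value was 60.98 for sham 1 against TAC 1 and 21.89 for sham 2 against TAC 2. The latter was below the value between the TAC libraries. The test was tried on simulated counts first. Each library is from 1 heart, so p-values rest on the spread between libraries, in which heart and preparation cannot be told apart. With 2 libraries per group, edgeR estimates this spread for each gene with information from all genes tested.

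The members, the classes and the lists were chosen with earlier results of these data known. Named in full were called members and the 3 of each class with the highest mean FPKM. Processing genes were named where called or among the 2 most abundant of a subgroup, and Plod2, the other lysyl oxidases, Ddr2, Itga1 and Mia3 were added after their values were seen. The marker lists were fibroblast, endothelial, mural, macrophage, mesothelial and cardiomyocyte genes; a further list is not reported here. Coordinates are those of GENCODE M21 (GRCm38).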

Additional observations from a re-analysis of the deposited data

How the results depend on the processing

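No alternative called a collagen gene higher. The number called lower (3) was 5 with total-count scaling, 8 with no low-count filter, 5 with the replicate block and 0 with limma on FPKM, and ranged from 0 to 8 when 1 library was left out. The share of all genes called lower (2.43%) was 3.38%, 6.05%, 2.38% and 1.02% under the first 4 of these. Without the filter 39 members and 16015 genes were tested. Same-numbered libraries deviated in opposite directions (correlation −0.271 over tested genes), and although the study speaks of pairs of sham and TAC mice, no source used here says what links a pair or that a number marks one, so the block pairs samples by number alone. The crossed pairing, added after this was seen, called 9 collagens, 8 processing genes and 2131 genes in all, against 566 with the block and 626 without. With the block 3 processing genes were called. The number of processing and receptor genes called (4) was 2 with total-count scaling, 7 with no filter and 1 with limma on FPKM, and ranged from 0 to 4 without 1 library. The share of all genes called in either direction (5.01%) was 4.22%, 10.5%, 1.56% and 1.27% to 8.36% in the same order. The median log2 fold change of basement membrane collagens was −0.25 with limma on FPKM and −0.75 to −0.30 without 1 library, and that of other collagens −0.76 with total counts and −0.66 to −0.39 without 1 library. Fibrillar medians stayed between −0.75 and −0.39. For single members, 255 of 290 comparisons with an alternative kept their side of the threshold, most of them of members not called. A call was gained in 26 and lost in 9. All 9 losses were of Col6a1, Col6a2 and Col6a6, which were called in 9 of 11, 8 of 11 and 6 of 10 alternatives. The sign differed from the main fit in 12 comparisons, none of them of a called member. Why these values moved was not tested. With 2 libraries per group and under 100 counts in many members, small changes of scarce collagens were not detectable.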

Other observations

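Mesothelial markers (Wt1, Msln, Upk3b and Lrrn4), added as a check on cells of the heart surface, had a median log2 fold change of −0.15 with 0 of 4 called by edgeR and 0 at an unadjusted p under 0.05. Their sum was 7.65 and 4.87 CPM in sham and 3.95 and 7.73 CPM in TAC.

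The transcript length implied by count and FPKM was nearly the same in all libraries for most of the 21 members with at least 20 counts in each, with a median ratio of highest to lowest of 1.11. It was over 1.5 for 2 of them. For Col4a3 the longest value (8667 bases, sham 1) was 2.06 times the shortest (4203 bases, TAC 1), and Col23a1 had 2187 bases in sham 1 against 5584, 5661 and 5590 in sham 2, TAC 1 and TAC 2. For these genes FPKM and counts give different pictures.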
